A study of Mus musculus with 2 samples.

Results

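Zfp36, Zfp36l1, Zfp36l2, Nr4a1, Nr4a2, Nr4a3, Dusp1, Dusp2, Klf2 and Klf6 are 10 of the 32285 genes measured in splenic DC by scRNA-seq, and they were chosen by symbol as a group of feedback genes. One library came from WT (H2-Aa +/+) and another from H2-Aa cit/cit mice (cit/cit for short), which carry a germline mutation that deprives all their cells of the MHC-II alpha chain. Each library pooled 3 naive female mice aged 4 months, and cells cannot be traced to a mouse in the deposited files. Splenocytes were enriched for CD11c and live CD45.2+ CD11c+ cells were sorted, so other CD11c+ cells can be present. With 1 library per genotype there is no replicate error, and no difference between genotypes was tested. All intervals are 95% intervals for counting error alone. UMIs (unique molecular identifiers, each marking a captured transcript) of each gene were added up within a class and expressed per 1000000 UMIs of that class (CPM). Log2 ratios are cit/cit over WT. A ratio was counted as lower or higher when it reached 0.5 on the log2 scale and the gene had at least 50 CPM in either library. That size rule takes the place of a test.

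Most of the 10 genes belong to families that are induced soon after receptor signaling and are known in DC and macrophages as brakes. ZFP36 proteins bind AU-rich elements in mRNA and recruit the CCR4-NOT deadenylase, so that cytokine transcripts decay. NR4A proteins are orphan nuclear receptors whose amount is set mainly by transcription. DUSP1 and DUSP2 are nuclear phosphatases that switch off MAP kinases, and KLF2 and KLF6 are zinc finger transcription factors, of which KLF2 holds myeloid cells quiescent and KLF6 is linked to NF-κB target genes.

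Several of these genes are textbook targets of CREB and of serum response factor (SRF), which bind the CRE (full site TGACGTCA, core TGACG) and the CArG box. RefSeq start sites (GRCm38.p6, the build of the files) were found for 9 of the 10 genes, all but Zfp36l2, and the 250 bases before each were searched on both strands. Overlapping matches were counted, so a full CRE holds the core on both strands. The core was found in 17.8% of 32851 promoters of the same length and in those of Nr4a1, Nr4a2, Nr4a3, Dusp1 and Klf2. At least 3 matches were found in 0.688% of promoters, and 4 of the 9 belonged there. Nr4a1, Nr4a2 and Nr4a3 had 4 matches each and Dusp1 had 3. The full CRE was found in 1.55% of promoters and in that of Dusp1. The CArG box was found in 1.47% and in that of Zfp36. Of the other motifs searched, GGGCGG (32.7% of promoters) was in 8 of the 9, CCAAT (33.8%) was in those of Zfp36l1 and Klf6, and TATAAA (12.4%) was in those of Zfp36l1 and Nr4a2. A match describes letters in this window and is neither a site of binding nor a cause. Stretches with several CRE cores and the CArG box of Zfp36 follow as examples of these motifs. The promoter of Nr4a2, a gene of few UMIs, is not shown. Capitals mark the CRE core in Nr4a1, Nr4a3 and Dusp1 and the CArG box in Zfp36. Bases that GENCODE places in exons were taken off Nr4a3 and Dusp1, while the Nr4a1 window held none. Nr4a3 is therefore printed with 3 of its 4 matches. The Zfp36 window is limited to 30 bases because a GENCODE transcript covers all of it.
Nr4a1, chr15:101266596-101266845, plus strand: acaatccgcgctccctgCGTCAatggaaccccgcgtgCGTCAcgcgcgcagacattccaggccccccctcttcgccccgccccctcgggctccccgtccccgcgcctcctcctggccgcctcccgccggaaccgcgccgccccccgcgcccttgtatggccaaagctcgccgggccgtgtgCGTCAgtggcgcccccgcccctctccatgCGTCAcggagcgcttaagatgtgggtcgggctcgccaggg
Nr4a3, chr4:48045055-48045152, plus strand: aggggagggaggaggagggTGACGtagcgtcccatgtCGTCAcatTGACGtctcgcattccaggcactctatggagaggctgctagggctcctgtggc
Dusp1, chr17:26508520-26508722, minus strand: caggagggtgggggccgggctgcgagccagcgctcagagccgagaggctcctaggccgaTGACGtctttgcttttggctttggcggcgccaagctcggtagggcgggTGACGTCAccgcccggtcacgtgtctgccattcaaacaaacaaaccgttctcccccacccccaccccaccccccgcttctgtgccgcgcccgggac
Zfp36, chr7:28379267-28379296, minus strand: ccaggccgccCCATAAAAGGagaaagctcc

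The WT library held 7814 cells and the cit/cit library 11525 cells, with medians of 5492 and 5633 UMIs per cell, and H2-Aa was at 5410 and 66.2 CPM. Cells were sorted into classes by the number of marker genes with a UMI, none of them among the 10 genes. A class was used when it held at least 50 cells in each library, which left 11 classes and the cells that passed no gate. Rankings of levels and counts of classes below refer to these alone. The Ffar2-gated cDC2 (1416 WT and 3754 cit/cit cells), Ccr2-gated cDC2 (161 and 456), cDC1 (481 and 564), pDC (168 and 211) and macrophages (164 and 101) were led by genes known for these cells. Many of those genes are markers of the gates themselves, so they lead by design and lend the names no support. Hemoglobin genes were also among the leading genes of macrophages. Mature cells without cDC1 genes (1991 and 1360) are those with a UMI of fewer than 2 of Xcr1, Clec9a, Cadm1, Itgae, Gcsam and Tlr3. A single one of these genes can therefore occur in them. They were led by Dkk2, and Socs2, Fscn1 and Ccr7, markers of the gate, ranked 3, 6 and 8. Mature cells with at least 2 of the cDC1 genes (137 and 22) were too few to be used. In WT they had more Zfp36 (290 CPM), Nr4a3 (123 CPM), Dusp2 (347 CPM) and Klf6 (621 CPM) than those without. In cit/cit they had less, at 115, 35.1, 166 and 220 CPM. Proliferating cells were likewise called without cDC1 genes when they held fewer than 3 cDC1 markers. Low-ribosomal cDC2 (1304 and 1597) are cDC2 with less than 8% of their UMIs from ribosomal protein genes and were led by noncoding genes such as Gm15261. The monocyte gate (496 and 857) was mixed, with Flt3, a DC gene, in 65.9% and 71.8% of its cells. Another 31 cell barcodes occurred in both libraries. Median depth per cell differed most in cDC1, with 8172 UMIs in WT and 14294.5 in cit/cit cells.

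Zfp36 (ENSMUSG00000044786, chromosome 7, 28376784 to 28380253, minus strand) encodes tristetraprolin, the founding member of its family. Its level in Ffar2-gated cDC2 was 220 CPM in WT and 130 CPM in cit/cit cells, from 2418 and 3372 UMIs, a log2 ratio of −0.76 (−0.83 to −0.68). In mature cells, the highest of the classes used in both libraries, it was 270 and 166 CPM, a log2 ratio of −0.70 (−0.79 to −0.61). In cDC1 it was 114 and 61.1 CPM, a log2 ratio of −0.90 (−1.07 to −0.72). The same direction was found in most other classes. Ccr2-gated cDC2 had 243 and 131 CPM (−0.89, −1.09 to −0.70), low-ribosomal cDC2 116 and 72.4 CPM (−0.68, −0.90 to −0.48), and unresolved cDC2, which pass neither cDC2 gate, 243 and 136 CPM (−0.84, −1.08 to −0.59). The monocyte gate had 205 and 123 CPM (−0.74, −0.86 to −0.61), macrophages 207 and 145 CPM (−0.51, −0.94 to −0.10), and pDC 121 and 85.6 CPM (−0.50, −0.81 to −0.20). Thus, Zfp36 was lower by the size rule in 10 of 12 classes, the ungated cells included (−0.54). The rule is fixed while classes differ in spread, so the 10 are not alike. Of genes of at least 50 CPM, 0.406% had a ratio below that of Zfp36 in Ffar2-gated cDC2, 2.38% in cDC1, 5.56% in pDC and 12.1% in macrophages. Proliferating cells were the exception to the count. Those without cDC1 genes had 89.6 and 75.6 CPM (−0.25, −0.57 to 0.09) and those with cDC1 genes 52.7 and 54.3 CPM (0.04, −0.51 to 0.62), from 44 and 74 UMIs in the latter. The order of classes was similar in both libraries, and from mature cells down to the monocyte gate each level overlapped the next in its counting interval. GENCODE places Gm44710 on the opposite strand of Zfp36.

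**Figure D1:**
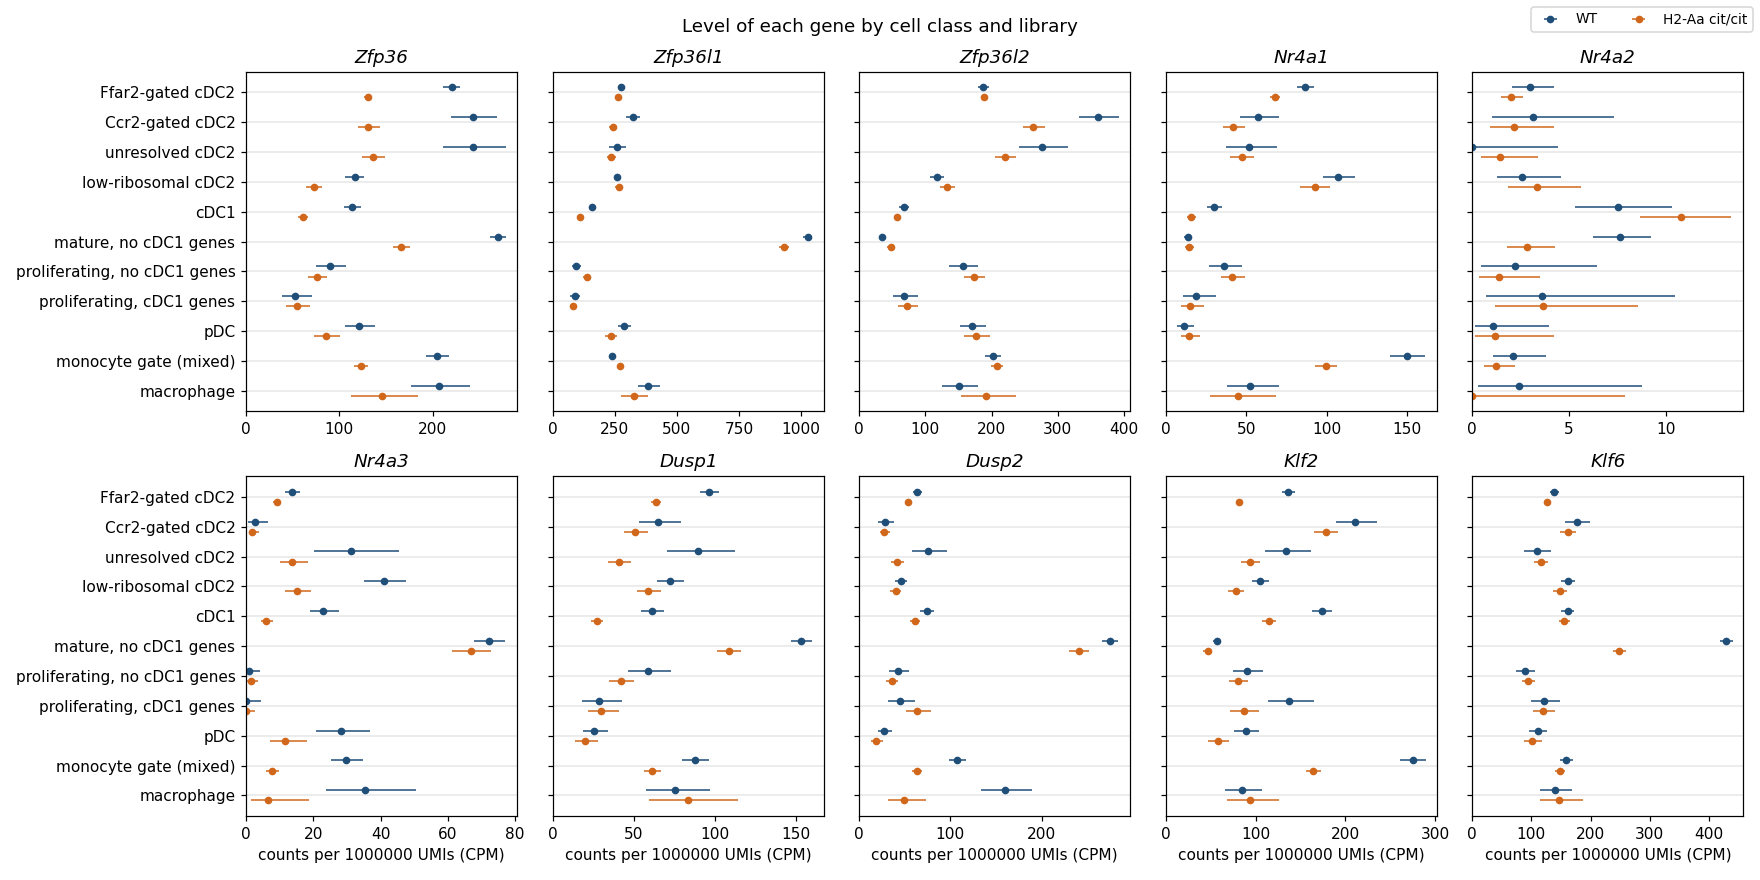
Level of each of the 10 genes in counts per 1000000 UMIs (x axes, a separate linear scale for each gene) in 11 cell classes (y axis) of the WT and cit/cit libraries. Points are 1 library each and bars are 95% Poisson intervals. Zfp36 lies lower in cit/cit in every class but proliferating cells with cDC1 genes, whereas Klf6 is separated in the mature class, at 429 and 249 CPM.

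Zfp36l1 (ENSMUSG00000021127, chromosome 12, 80107754 to 80113013, minus strand) and Zfp36l2 (ENSMUSG00000045817, chromosome 17, 84183931 to 84187947, minus strand) encode the other RNA-binding members of the family. Zfp36l1 was a gene of mature cells, at 1026 CPM in WT and 931 CPM in cit/cit cells (−0.14, −0.18 to −0.10). In Ffar2-gated cDC2 it was 276 and 265 CPM (−0.06, −0.12 to 0.01), and in low-ribosomal cDC2 261 and 267 CPM (0.03, −0.09 to 0.15). These cDC2 levels differed by less than their counting intervals between libraries. In cDC1, Zfp36l1 was lower, at 159 and 111 CPM (−0.52, −0.66 to −0.38). Its value in Ccr2-gated cDC2 was −0.41 (−0.57 to −0.25), from 322 and 243 CPM. In proliferating cells without cDC1 genes it was higher, at 95.5 and 137 CPM (0.52, 0.23 to 0.81), and in the monocyte gate it was 240 and 270 CPM (0.17, 0.07 to 0.27). That cDC1 value was inside the size rule, from −0.49 to −0.45, under 3 alternatives. The remaining classes lay inside it, with 260 and 237 CPM in unresolved cDC2 (−0.13), 288 and 233 CPM in pDC (−0.30), 386 and 327 CPM in macrophages (−0.24), 285 and 266 CPM in ungated cells (−0.09) and 88.6 and 82.9 CPM in proliferating cells with cDC1 genes (−0.09). Among the 12 classes its ratio was below 0 in 9.

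Zfp36l2 was highest in Ccr2-gated cDC2 in both libraries, at 361 CPM in WT and 263 CPM in cit/cit cells (−0.46, −0.61 to −0.30). Its level in Ffar2-gated cDC2 was 187 and 189 CPM (0.02, −0.06 to 0.09). Mature cells had the lowest level, at 35.1 and 47.5 CPM (0.44, 0.24 to 0.64). The family thus split by class. Neither Zfp36l1 nor Zfp36l2 had the lower level in Ffar2-gated cDC2 that Zfp36 had, and the intervals of their ratios there do not overlap that of Zfp36. Unresolved cDC2 had 277 and 220 CPM of Zfp36l2 (−0.33, −0.54 to −0.11), cDC1 had 67.1 and 57.3 CPM (−0.23, −0.43 to −0.02), and ungated cells had 102 and 136 CPM (0.42, 0.19 to 0.65). Macrophages had 151 and 192 CPM (0.35), low-ribosomal cDC2 117 and 133 CPM (0.19), the monocyte gate 202 and 208 CPM (0.04) and pDC 171 and 177 CPM (0.05). Proliferating cells had 157 and 174 CPM without cDC1 genes (0.15) and 68.2 and 72.7 CPM with them (0.09). No class reached 0.5 for Zfp36l2 in either direction. GENCODE places Gm26669 and AC132455.1 on the opposite strand of these genes.

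Nr4a1 (ENSMUSG00000023034, chromosome 15, 101254269 to 101274795, plus strand) encodes NUR77, a nuclear receptor used as a reporter of antigen receptor signaling in lymphocytes. Its highest level was in the monocyte gate, at 150 CPM in WT and 99.3 CPM in cit/cit cells (−0.59, −0.73 to −0.45). NUR77 is known for its role in the survival of patrolling monocytes. In Ffar2-gated cDC2 it was 86.7 and 67.9 CPM (−0.35, −0.47 to −0.24) and in low-ribosomal cDC2 107 and 92.4 CPM (−0.21, −0.41 to −0.01). Both values lie below 0 by less than the size rule. So did Ccr2-gated cDC2, at 57.6 and 42.0 CPM (−0.46), macrophages, at 52.3 and 44.9 CPM (−0.22), unresolved cDC2, at 51.5 and 47.2 CPM (−0.13), and ungated cells, at 76.3 and 74.7 CPM (−0.03). Proliferating cells had 36.0 and 41.1 CPM without cDC1 genes (0.19) and 19.1 and 15.4 CPM with them (−0.31). In cDC1, where it stayed under 50 CPM, it was 30.1 and 15.6 CPM (−0.95, −1.30 to −0.60). Mature cells and pDC were near the lowest in both libraries, at 13.6 and 14.4 CPM (0.09, −0.27 to 0.43) and at 11.6 and 14.6 CPM (0.33, −0.57 to 1.24).

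Nr4a3 (ENSMUSG00000028341, chromosome 4, 48045153 to 48086447, plus strand) encodes NOR1, known in DC for migration to lymph nodes. Of the classes used, it was highest in mature cells, at 72.2 CPM in WT and 66.8 CPM in cit/cit cells, a log2 ratio of −0.11 (−0.27 to 0.04). That was the single class of those used in which it reached 50 CPM, so its larger ratios elsewhere rest on few UMIs and enter no count. Low-ribosomal cDC2 had 41.0 and 15.0 CPM, from 176 and 63 UMIs (−1.45, −1.89 to −1.02). In cDC1 it was 23.0 and 6.03 CPM, from 116 and 48 UMIs (−1.93, −2.44 to −1.43). The monocyte gate had 29.8 and 7.75 CPM, from 154 and 69 UMIs (−1.94, −2.37 to −1.52). Outside the mature class Nr4a3 was thus at a lower level in several unlike cell classes of the cit/cit library. In pDC it was 28.1 and 11.6 CPM, from 51 and 20 UMIs (−1.27, −2.10 to −0.50), and in macrophages 35.3 and 6.41 CPM, from 29 and 3 UMIs (−2.46, −4.82 to −0.77). Ffar2-gated cDC2 had 13.8 and 9.12 CPM (−0.59, −0.89 to −0.29), and unresolved cDC2 31.1 and 13.8 CPM (−1.18, −1.90 to −0.43). Ungated cells had 39.9 and 25.9 CPM (−0.62). Ccr2-gated cDC2, with 4 and 7 UMIs, and proliferating cells, with at most 4 per library and class, had too few for a ratio to be read. All classes come from the same pair of libraries, so these ratios do not repeat each other. Ccr7, a marker of mature cells, was at 9.70 and 2.76 CPM in cDC1, 82.6 and 33.2 in the monocyte gate, and 39.7 and 27.9 in pDC. It was at 161 and 118 CPM in macrophages, 62.3 and 14.4 in unresolved cDC2 and 83.5 and 46.3 in ungated cells. Low-ribosomal cDC2 had 25.6 and 22.0 CPM and Ffar2-gated cDC2 19.1 and 18.9. Any part of mature cells in the Nr4a3 ratios was not tested.

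Nr4a2 (ENSMUSG00000026826, chromosome 2, 57106830 to 57124003, minus strand) encodes NURR1 and was measured at 10.8 CPM or less in every class used. Mature cells had 104 UMIs in WT and 22 in cit/cit, or 7.64 and 2.83 CPM (−1.43, −2.17 to −0.76). Without the cells that held a UMI of genes of mature cDC1, that log2 ratio was −0.48. In cDC1 it was 7.52 and 10.8 CPM (0.52, −0.04 to 1.11). Ffar2-gated cDC2 had 33 and 52 UMIs (−0.58, −1.24 to 0.09). Most other classes had too few UMIs for a ratio to be read. Low-ribosomal cDC2 had 11 and 14 UMIs, the monocyte gate 11 and 11, ungated cells 9 and 18, and Ccr2-gated cDC2 5 and 8. Proliferating cells with cDC1 genes had 3 and 5 UMIs, those without 3 and 4, and pDC 2 and 2. Unresolved cDC2 had 0 and 5 UMIs and macrophages 2 and 0, for which no fold is given.

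Dusp1 (ENSMUSG00000024190, chromosome 17, 26505590 to 26562128, minus strand) encodes MKP-1, which dephosphorylates p38 and JNK. Its level in Ffar2-gated cDC2 was 96.6 CPM in WT and 63.9 CPM in cit/cit cells (−0.60, −0.71 to −0.48). In cDC1 it was 61.3 and 27.4 CPM (−1.16, −1.42 to −0.91), and in unresolved cDC2 89.8 and 40.7 CPM (−1.14, −1.56 to −0.72). In cDC1 and unresolved cDC2 these were the lowest ratios among the ZFP36, DUSP and KLF genes of the 10. Mature cells had the highest level, 153 and 108 CPM (−0.50, −0.61 to −0.38), a ratio just inside the size rule and not counted. The monocyte gate reached it, with 87.6 and 61.1 CPM (−0.52, −0.70 to −0.34). Low-ribosomal cDC2 had 72.2 and 59.0 CPM (−0.29, −0.54 to −0.05), and macrophages had 75.4 and 83.3 CPM (0.14, −0.47 to 0.74). The other values were 65.1 and 50.8 CPM in Ccr2-gated cDC2 (−0.36), 70.9 and 58.4 CPM in ungated cells (−0.28), 25.4 and 19.8 CPM in pDC (−0.36), and in proliferating cells 58.8 and 42.1 CPM without cDC1 genes (−0.48) and 28.7 and 30.1 CPM with them (0.07). The GENCODE gene overlaps AC122252.4, AC122252.1, Gm8225 and Ergic1, so reads near their shared stretches are uncertain.

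Dusp2 (ENSMUSG00000027368, chromosome 2, 127336159 to 127338376, plus strand) encodes PAC-1, a MAP kinase phosphatase of activated leukocytes. Of the classes used, it was highest in mature cells without cDC1 genes, at 275 CPM in WT and 241 CPM in cit/cit cells (−0.19, −0.27 to −0.11). In WT, macrophages followed with 159 CPM, and in cit/cit they had 49.1 CPM (−1.70, −2.40 to −1.05). That macrophage value came from 131 and 23 UMIs. Dusp2 was also lower in the monocyte gate, at 108 and 63.2 CPM (−0.77, −0.94 to −0.60), and in unresolved cDC2, at 75.5 and 41.3 CPM (−0.87, −1.31 to −0.42). Ffar2-gated cDC2 had 63.7 and 53.9 CPM (−0.24, −0.37 to −0.11) and cDC1 74.4 and 60.8 CPM (−0.29, −0.49 to −0.09). Ungated cells reached the size rule, at 70.9 and 49.3 CPM (−0.52), and proliferating cells with cDC1 genes reached it in the other direction, at 44.3 and 63.8 CPM from 37 and 87 UMIs (0.53, −0.04 to 1.12). Those without cDC1 genes had 42.6 and 35.6 CPM (−0.26). Low-ribosomal cDC2 had 45.9 and 39.9 CPM (−0.20), Ccr2-gated cDC2 28.8 and 27.8 CPM (−0.05) and pDC 27.6 and 18.6 CPM (−0.57), all under 50 CPM. In Ffar2-gated cDC2 and cDC1, Dusp1 and Dusp2 had unequal ratios, with Dusp1 the lower of the pair.

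Klf2 (ENSMUSG00000055148, chromosome 8, 72319033 to 72321656, plus strand) stood in Ffar2-gated cDC2 at 136 CPM in WT, against 81.9 CPM in cit/cit (−0.74, −0.83 to −0.64). The monocyte gate had its highest WT level, 275 CPM, against 164 CPM in cit/cit (−0.74, −0.85 to −0.64). In cDC1 it was 174 and 115 CPM (−0.60, −0.73 to −0.46). Klf2 was lower by the size rule in 7 of 12 classes, the second most after Zfp36. Among them were pDC, at 89.3 and 58.2 CPM (−0.62, −0.99 to −0.25), proliferating cells with cDC1 genes, at 138 and 86.6 CPM (−0.67, −1.05 to −0.29), and unresolved cDC2, at 134 and 93.7 CPM (−0.52, −0.83 to −0.19). Ccr2-gated cDC2 had 211 and 178 CPM (−0.24, −0.44 to −0.05) and low-ribosomal cDC2 105 and 77.8 CPM (−0.43, −0.64 to −0.22). The pDC value was −0.48 with 1 more marker per gate. Over the 7 classes, from 0.461% (Ffar2-gated cDC2) to 7.06% (cDC1) of genes of at least 50 CPM had a ratio below that of Klf2. Ungated cells had 109.9 and 68.3 CPM (−0.69), macrophages 85.1 and 94.0 CPM (0.14) and proliferating cells without cDC1 genes 90.4 and 80.4 CPM (−0.17). Mature cells had its lowest level in both libraries, 56.9 and 46.7 CPM (−0.28, −0.47 to −0.10).

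Klf6 (ENSMUSG00000000078, chromosome 13, 5861482 to 5870394, plus strand) had its highest level of the classes used in mature cells in both libraries, the class in which Klf2 was lowest. There it was 429 CPM in WT and 249 CPM in cit/cit, from 5839 and 1932 UMIs, a log2 ratio of −0.79 (−0.86 to −0.71). Its level was close between libraries in cDC1, at 161 and 156 CPM (−0.05, −0.18 to 0.08), and in low-ribosomal cDC2, at 162 and 148 CPM (−0.13, −0.29 to 0.03). Ffar2-gated cDC2 had 139 and 126 CPM (−0.14, −0.23 to −0.05), Ccr2-gated cDC2 176 and 162 CPM (−0.13, −0.33 to 0.08), and pDC 111 and 101 CPM (−0.13, −0.43 to 0.17). The monocyte gate had 159 and 148 CPM (−0.10), macrophages 139.9 and 147 CPM (0.08), unresolved cDC2 109 and 116 CPM (0.09) and ungated cells 157 and 125 CPM (−0.33). Proliferating cells had 88.9 and 94.8 CPM without cDC1 genes (0.09) and 122 and 120.4 CPM with them (−0.02). Klf6 reached 0.5 in the mature class alone of 12.

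**Figure D2:**
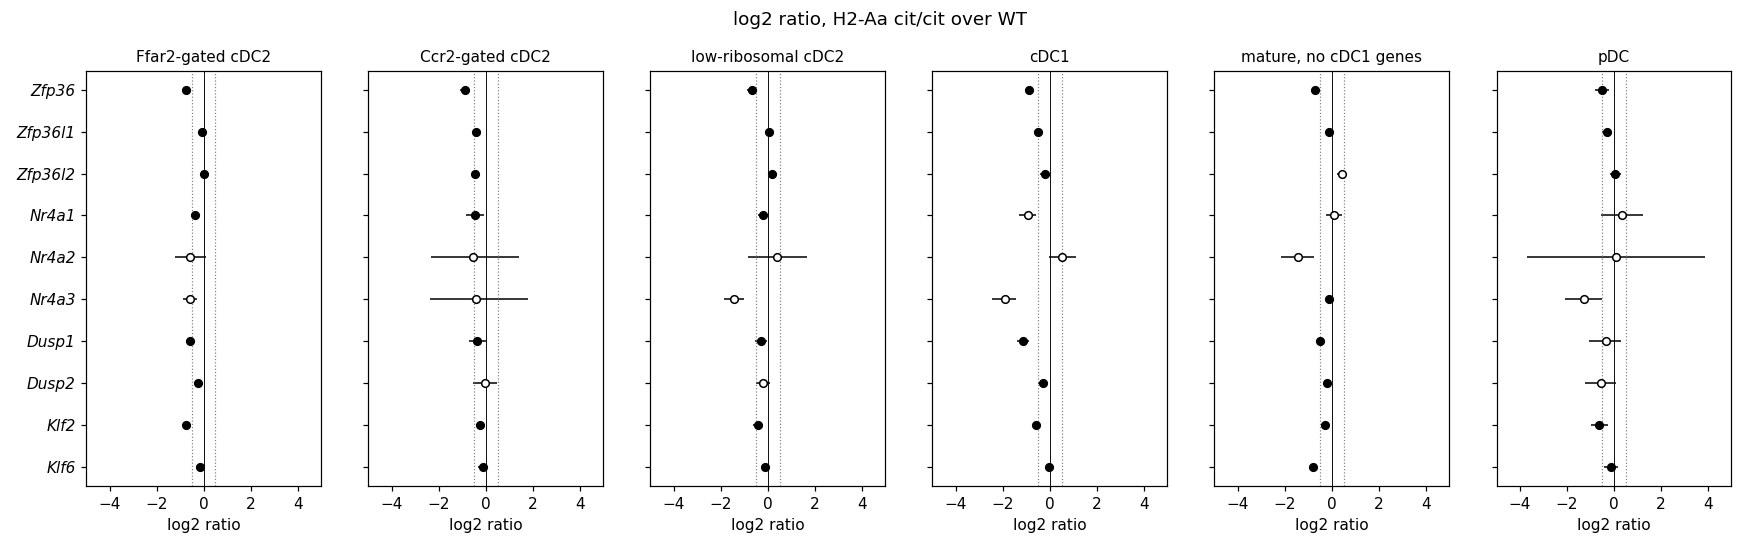
Log2 ratio (cit/cit over WT, x axes) of each gene (y axis) in 6 cell classes, with 95% intervals for counting error. Filled points have at least 50 CPM in either library, open points less, and dotted lines mark 0.5 in each direction. Zfp36 is at or past −0.5 in all 6 classes, Klf6 in mature cells, and Nr4a3 lies far to the left in low-ribosomal cDC2, cDC1 and pDC.

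The genes were set against all genes of at least 50 CPM in the same class. A member that passes this level through 1 library alone is favored to differ, so the counts are descriptions. In Ffar2-gated cDC2, 8 of the 10 passed, and Zfp36, Dusp1 and Klf2 were lower while none was higher. Of 3691 genes there, 1.46% were lower and 2.98% higher. A ratio below that of Zfp36 was found for 0.406% of genes, and below that of Klf2 for 0.461%. The median log2 ratio was −0.30 over the 8, −0.47 over all 10 and −0.02 over the 3691 genes. In Ccr2-gated cDC2, Zfp36 was the 1 lower gene of 7 that passed and none was higher, against 2.68% and 4.42% of 3617 genes. Low-ribosomal cDC2 likewise had Zfp36 as the 1 lower gene of 7 and none higher, against 2.17% and 3.17% of 4006 genes. In cDC1, Zfp36, Zfp36l1, Dusp1 and Klf2 were lower, 4 of 7 that passed, and none was higher. All genes moved more there, with 9.86% lower and 12.1% higher of 3528. Scaling each cDC1 cell to 10000 counts before averaging left 1 of the 4 counted, Zfp36 at −0.63. Zfp36l1 (−0.49) and Klf2 (−0.41) were then inside 0.5, and Dusp1, still at −0.80, no longer reached 50 CPM.

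In mature cells, Zfp36 and Klf6 were the 2 lower of 7 that passed and none was higher, against 5.38% and 4.5% of 3626 genes. In pDC, Zfp36 and Klf2 were the 2 lower of 5 that passed and none was higher, against 5.68% and 2.85% of 3994 genes. Zfp36 in pDC sat at the limit, and several alternatives took it inside. With 1 more marker per gate both it (−0.42) and Klf2 (−0.48) were inside, and no gene was counted. Markers of other cells moved with some of these values. In cDC1, the summed level of 8 pDC markers was 170 CPM in WT and 50.1 CPM in cit/cit, that of 5 erythroid genes 66.1 and 3.90 CPM, and that of 6 plasma cell genes 67.9 and 257 CPM. In mature cells, 10 cDC1 markers summed to 125 and 55.0 CPM and 7 macrophage markers to 72.5 and 40.4 CPM. In pDC, 10 cDC1 markers summed to 820 and 448 CPM. Their part in the ratios of the 10 genes was not tested, except that mature cells with no UMI of genes of mature cDC1 (1066 WT and 908 cit/cit cells) had log2 ratios of −0.52 for Zfp36, −0.52 for Klf6, −0.59 for Klf2 and −0.48 for Nr4a2. In Ffar2-gated cDC2, where 3 lower genes were counted, 7 macrophage markers summed to 9.66 and 8.73 CPM, 5 erythroid genes to 4.37 and 3.21 CPM, and 10 cDC1 markers to 58.5 and 65.8 CPM. The pDC markers there were at 61.7 and 41.3 CPM and the plasma cell genes at 46.4 and 91.2 CPM.

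**Figure D3:**
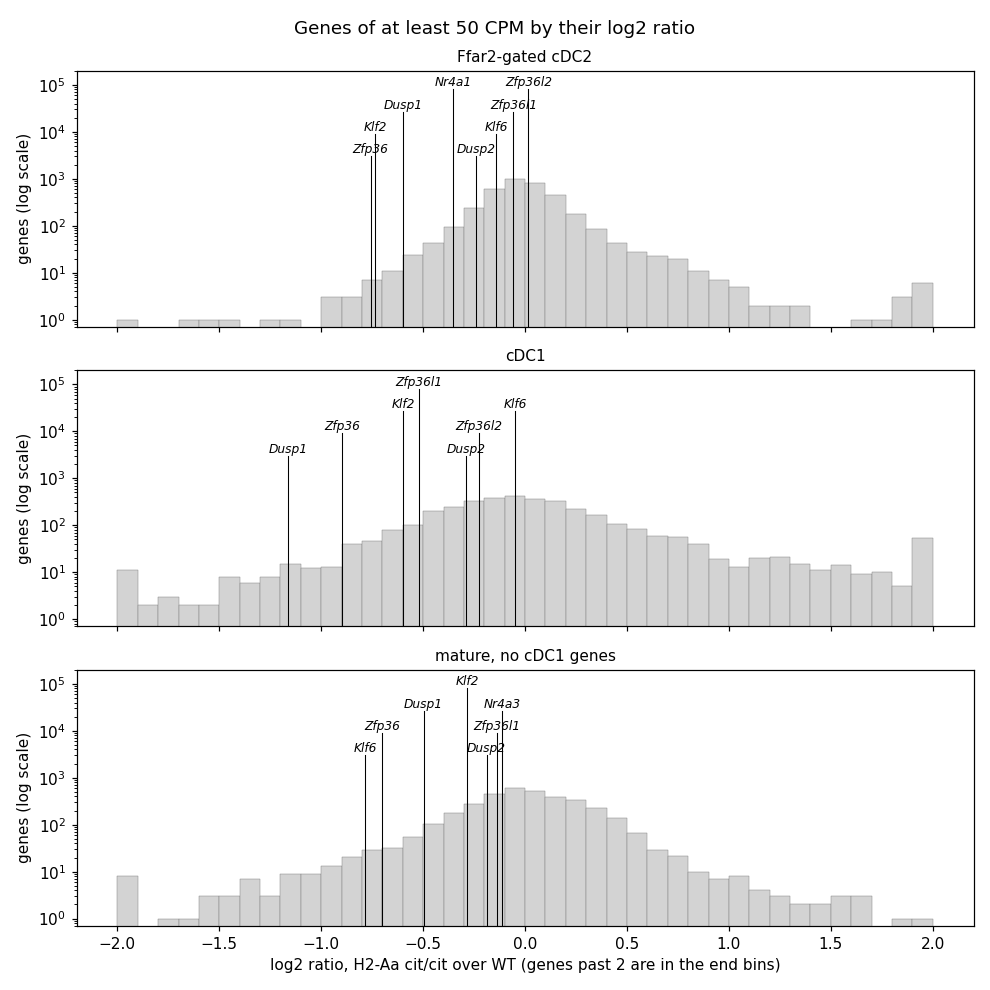
Number of genes of at least 50 CPM (y axes, log scale) by log2 ratio (x axis, bins of 0.1) in Ffar2-gated cDC2, cDC1 and mature cells, with the members that pass this level marked by lines whose height has no meaning. Zfp36, Klf2 and Dusp1 lie in the lower tail in Ffar2-gated cDC2, whereas Klf6 and Zfp36 lie there in mature cells.

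Over all cells of the libraries, regardless of class, 8 of the 10 passed 50 CPM and 5 were lower, with none higher, while 10.2% of 3953 genes were lower and 5.01% higher. They were Zfp36 (202 and 116 CPM, −0.81), Dusp2 (135 and 71.9 CPM, −0.91), Dusp1 (98.1 and 59.4 CPM, −0.72), Klf6 (241 and 146 CPM, −0.72) and Zfp36l1 (485 and 308 CPM, −0.65). These sums mix levels with class shares. Mature cells made up 25.5% of WT and 11.8% of cit/cit cells. With each class given its mean share of both libraries, the log2 ratio was −0.74 for Zfp36 and −0.55 for Dusp1. It was −0.35 for Dusp2, −0.41 for Klf6 and −0.16 for Zfp36l1. Klf2, a gene of cells other than mature ones, went from −0.37 to −0.57. Zfp36l2, at 123 and 158 CPM over all cells (0.35, 0.31 to 0.40), had a log2 ratio of 0.01 at equal shares. Nr4a3, under 50 CPM over all cells (40.2 and 15.5 CPM), went from −1.38 to −0.69, and Nr4a1 (59.1 and 55.8 CPM) from −0.08 to −0.36. The ratios over all cells therefore depended on class shares, and among the 10 genes that of Zfp36 moved least.

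Mature cells were compared with Ffar2-gated cDC2 inside each library. The ZFP36, NR4A and KLF families each had members at higher and members at lower levels in mature cells, while both phosphatase genes were higher. In the ZFP36 family, Zfp36l1 was 3.72-fold higher in mature cells in WT and 3.52-fold in cit/cit, while Zfp36l2 was 5.33-fold and 3.98-fold lower. Zfp36 itself was 1.23-fold and 1.28-fold higher. The NR4A family was split in the same manner, with Nr4a3 5.25-fold and 7.33-fold higher and Nr4a1 6.38-fold and 4.71-fold lower. In the KLF family, Klf6 was 3.09-fold higher in WT and 1.98-fold in cit/cit, and Klf2 was 2.39-fold and 1.75-fold lower. Dusp2 was 4.32-fold and 4.48-fold higher and Dusp1 1.59-fold and 1.70-fold. The direction was the same in both libraries for all 10 genes, although the interval for Nr4a2 in cit/cit included 0 (log2 0.50, −0.29 to 1.24). The sizes for Klf6 (log2 1.63, 1.55 to 1.71, against 0.98, 0.90 to 1.07), Klf2, Zfp36l2 and, barely, Nr4a3 had intervals that did not overlap between libraries. Whether these differences exceed those between mice could not be tested. The mature class also held unequal amounts of cDC1 markers, 10 of which summed to 125 CPM in WT and 55.0 CPM in cit/cit. Only 1066 WT and 908 cit/cit mature cells had no UMI of genes of mature cDC1. Genotype ratios of Klf6, Klf2 and Zfp36l2 in mature cells changed when the others were left out. The part of those cells in these sizes was not tested.

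**Figure D4:**
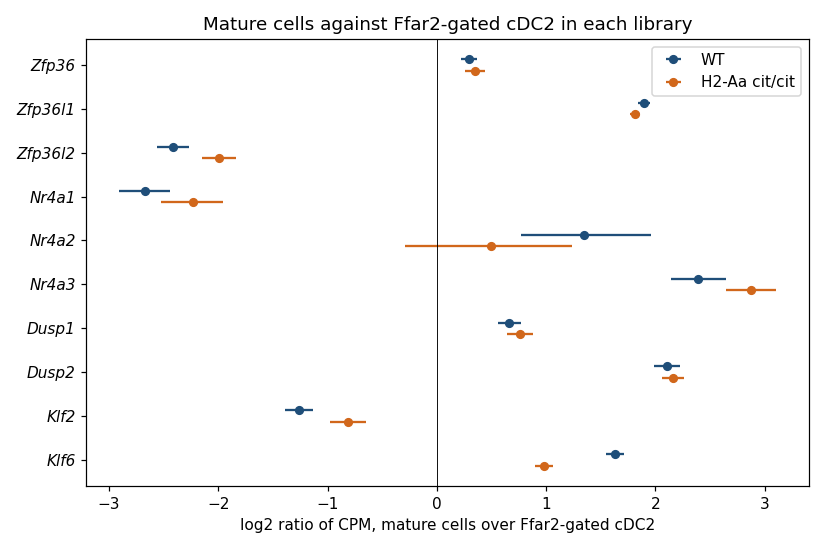
Log2 ratio of CPM (x axis) of mature cells without cDC1 genes over Ffar2-gated cDC2, for each gene (y axis) in the WT and cit/cit libraries, with 95% intervals for counting error. Zfp36l1, Nr4a3, Dusp2 and Klf6 lie to the right and Zfp36l2, Nr4a1 and Klf2 to the left in both libraries.

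To see how many cells carried a transcript, each cell was thinned to 1500 UMIs and shallower cells were left out. In Ffar2-gated cDC2, Zfp36 was found in 26.4% (24.1% to 28.8%) of 1384 WT cells and 16.7% (15.5% to 17.9%) of 3698 cit/cit cells, after 32 and 56 shallower cells were left out. Without thinning the shares were 68.0% and 51.2%, at median depths of 7763.5 and 6592.5 UMIs. Cells with 2 or more Zfp36 UMIs made up 5.78% and 2.14%. Thus, both the share of cells with Zfp36 and the share with several UMIs were lower. No class is known to lack Zfp36, so free RNA has no clean reference. The lowest share in cit/cit was in cDC1 (6.43%), and that in WT was in proliferating cells with cDC1 genes (8.93%).

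Klf2 was found in 15.7% (13.8% to 17.7%) of WT and 9.44% (8.51% to 10.4%) of cit/cit Ffar2-gated cDC2. Klf6 was found in 38.5% (36.3% to 40.7%) of 1940 WT and 26.0% (23.7% to 28.5%) of 1319 cit/cit mature cells, and with 2 or more UMIs in 13.7% and 7.05%. Median depths of mature cells were 6342 and 5103 UMIs, and the unthinned shares were 69.9% and 55.7%. Nr4a3 was rare even where it was highest, in 8.92% (7.69% to 10.3%) and 8.34% (6.90% to 9.96%) of mature cells. In Ffar2-gated cDC2 it was found in 1.73% and 1.19% of cells. At this depth most cells of a class had no UMI of most members, which does not show that they lacked the transcript.

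**Figure D5:**
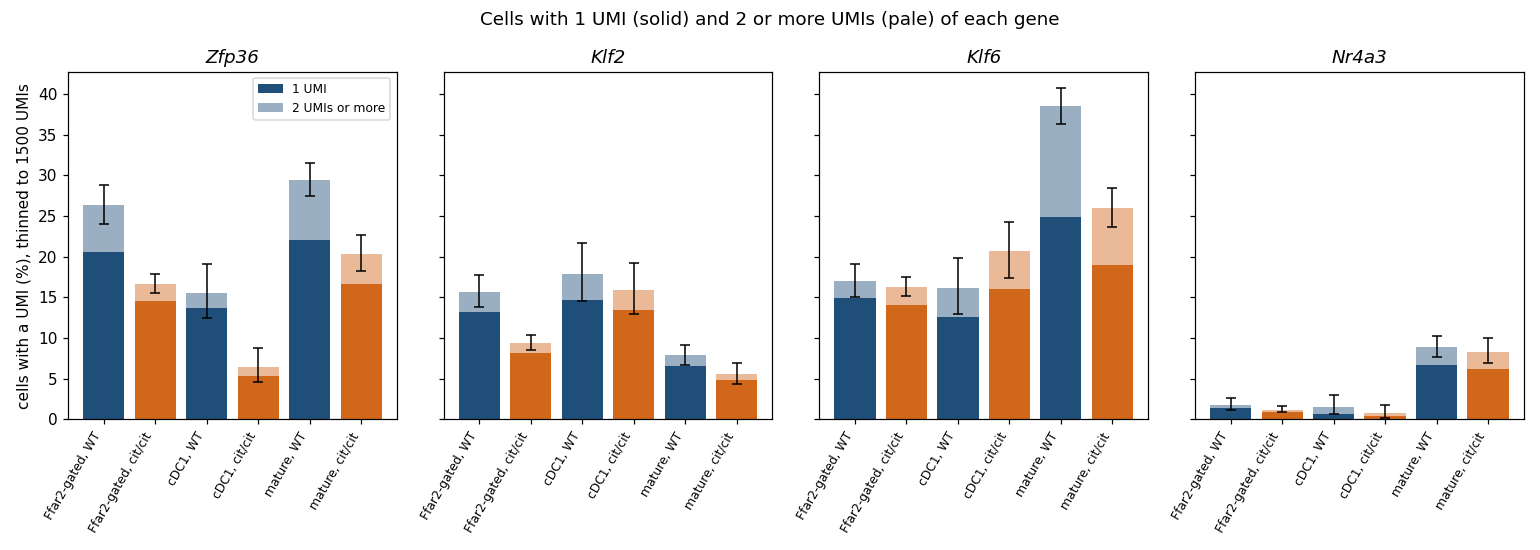
Share of cells (y axis, percent) with 1 UMI (solid) and with 2 or more (pale) of Zfp36, Klf2, Klf6 and Nr4a3 after thinning to 1500 UMIs, in Ffar2-gated cDC2, cDC1 and mature cells of WT and cit/cit. Bars are stacked from 0, and error bars are 95% Clopper-Pearson intervals of the total share. Zfp36 is lower in cit/cit in all 3 classes and Klf6 in mature cells.

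Pathway genes around the 10 were read from hand-written lists. In Ffar2-gated cDC2, 10 of 24 immediate-early genes reached 50 CPM, and 3 were lower and none higher. These were Egr1 (99.7 CPM in WT and 35.4 CPM in cit/cit, −1.49), Jun (376 and 227 CPM, −0.73) and Ier2 (97.0 and 63.8 CPM, −0.60), early genes with Egr1 and Jun as transcription factors. Btg2 (−0.19), Junb (−0.36) and Fosb (0.13) stayed inside the size rule, so the early genes did not share a single ratio. Of 11 NF-κB feedback genes, 8 reached 50 CPM and Relb alone was lower, at 509 and 347 CPM (−0.55), while Nfkb1 (−0.10), Nfkbia (−0.33) and Bcl3 (0.06) did not reach 0.5. Other DUSP and KLF genes had 5 of 18 at 50 CPM and none past 0.5, from Dusp16 (−0.37) to Klf3 (0.31), with Klf13 at 0.15.

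The partners of the 10 genes showed few ratios past the size rule in the same class. None of 7 MAP kinase pathway genes at 50 CPM reached it, among them Mapk14, which encodes p38α (−0.05), Mapkapk2 (−0.13) and Map2k2 (0.19). None of 4 upstream factors did, with Creb1 at −0.05, Mef2a at −0.11 and Mef2c at −0.19. None of 5 genes of the CCR4-NOT complex and its BTG partners did, with Cnot2 at −0.01, Cnot6l at −0.02, Cnot3 at 0.16 and Btg1 at −0.18. Of 12 transcripts with AU-rich elements only Il1b reached 50 CPM, at 131 and 106 CPM (−0.31), so targets of ZFP36 proteins could barely be read. Of 3 KLF2-linked trafficking genes only Itgb7 did, at 105 and 129 CPM (0.30). Heat shock genes, often raised by cell handling, had 4 of 8 at 50 CPM and none past 0.5, with Hspa8 at 0.03, Hspe1 at 0.08, Dnaja1 at 0.19 and Hspd1 at −0.06. Any part of handling in these ratios, in those of the 10 genes or in those of the immediate-early genes was not tested. The heat shock values do not settle it, because other genes can respond to handling apart from them.

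In other classes the lists gave different counts. In cDC1, Jun (−0.87), Btg2 (−0.72) and Sgk1 (−0.71) were the 3 lower of 12 early genes, and Cebpb (5.34 and 69.5 CPM) was the 1 higher. Over all genes of that class 9.86% were lower and 12.1% higher, so the single higher gene is no more than the share over all genes. Low-ribosomal cDC2 had Egr1 (150 and 38.2 CPM, −1.97), Jun (−0.58) and Ier2 (−0.53) as the 3 lower of 11, and the heat shock genes Hspa8 (0.51) and Hspe1 (0.62) were higher, against 2.17% of all genes lower and 3.17% higher. In mature cells 0 of 8 early genes was lower, and Tnip1 (−0.53) was the 1 lower of 10 NF-κB feedback genes, against 5.38% of all genes there. Egr1 was also lower in pDC (−1.63) and Ccr2-gated cDC2 (−1.18). These genes were named because they were counted.

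The genes most like each member in level were found by Pearson correlation of log2(CPM + 1) over 24 values, 12 classes in 2 libraries, among 6083 genes. The points share libraries and class totals, so the values describe likeness and were not tested. Zfp36 was most like Junb (0.90), H2-M2 (0.87) and Nfkbia (0.84). Zfp36l1 was most like Tnfaip3 (0.96), Arl5c (0.95) and Il4i1 (0.94), and Nr4a3 like Trp53inp1 (0.88), Btg1 (0.86) and Ell2 (0.86). Klf6 was most like Pim1 (0.91), Itgb1 (0.88) and Arhgap22 (0.87), whereas Klf2 had weaker matches, the closest being Ier2 (0.74), Ifngr1 (0.70) and Anxa1 (0.69). The genes closest to Zfp36l2 were Cd300a (0.94), Cd300c2 (0.94) and Ehd4 (0.91). Nr4a1 was most like Abcg3 (0.92), Tmem150b (0.91) and Itgax (0.91), Dusp1 like Lfng (0.85), Ddhd1 (0.85) and Nectin1 (0.84), and Dusp2 like Htra2 (0.88), Tm4sf5 (0.87) and Marcks (0.86). Nr4a2, with few UMIs, was most like Trim35 (0.75), Tap2 (0.72) and Lrrc40 (0.71). Among the members themselves, Zfp36 and Dusp1 (0.76), Zfp36l1 and Nr4a3 (0.76) and Zfp36 and Zfp36l1 (0.74) were most alike. The most opposite pairs were Zfp36l2 with Nr4a2 (−0.68), a gene of few UMIs, with Dusp2 (−0.58) and with Klf6 (−0.53).

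Single cells did not show the members together to any clear degree. Over the 45 pairs of members, Spearman's rho between thinned UMI counts had a median of 0.03 in 1384 WT and 0.01 in 3698 cit/cit Ffar2-gated cDC2, and the highest value there was 0.09, for Zfp36 and Dusp1 in WT. In cDC1 the highest was 0.19, for Nr4a1 and Nr4a3 in 475 WT cells. Most of these counts were 0, and correlations this weak in sparse counts are no finding.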

How the data were processed

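Per the labels and the study's methods, the authors made 1 library of 3′ transcripts (10X Genomics) per genotype and ran Cell Ranger 5.0.1 on mm10 (GRCm38) to count UMIs for every gene in every cell. The deposited values are these whole-number counts of called cells, not normalized. The annotation used for counting and the handling of intronic reads are not given in the sources used here. The labels give 4 months of age, and the study's methods give younger mice for experiments in general. The study lists Seurat, whose clusters were not used here.

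All 10 genes were named in every class. The 10 genes, gates and lists were chosen with earlier results of these data known. Cells, of at least 500 UMIs each, were gated by counts of marker genes with a UMI (2 to 4 needed, by class), without a mitochondrial limit. Doublets were not removed, and an alternative left out cells that passed gates of 2 lineages and the 1% with most UMIs. UMIs were summed per class and library (Python 3.11.15, numpy 2.4.6, scipy 1.17.1, pandas 2.3.3, matplotlib 3.10.9). Intervals are exact Poisson for CPM, exact conditional binomial for ratios and Clopper-Pearson for shares. They cover counting error alone, and mean no difference between mice. The libraries held 51020804 and 72652201 UMIs. From each list, the 3 genes of highest level and the largest and smallest ratio in Ffar2-gated cDC2 were named, and for each gene the 3 most alike. 1 gene that this names is not reported here. Other genes were named after their values were seen. The scripts were tested on simulated counts. Positions are from GENCODE M21. Alternatives were other scalings, gates, thresholds and thinning depths, and 4 were chosen after seeing the data.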

Additional observations from a re-analysis of the deposited data

Results flagged for a closer look

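Zfp36l2 had opposite log2 ratios in 2 classes. In mature cells without cDC1 genes it was 0.44 (35.1 CPM against 47.5 CPM, WT first), and in Ccr2-gated cDC2 it was −0.46 (361 and 263 CPM). Both counting intervals exclude 0 and lie on opposite sides of it. With 1 library per genotype, the difference between these classes was not tested. In mature cells with no UMI of genes of mature cDC1, the ratio was 0.19.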

How the results depend on the processing

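Of 30 log2 ratios of single genes that reached 0.5 in 7 groupings of cells, all 254 values under the alternatives kept their sign and 233 stayed at or past 0.5. Counts of lower genes depended more on the settings, and the cause of these changes was not tested. The counts below are given without the share over all genes at the same setting. They describe the dependence on settings alone and are no result about the 10 genes. A threshold of 1 log2 left 1 lower gene in cDC1 and 0 in all cells and in the Ffar2-gated, Ccr2-gated, low-ribosomal, mature and pDC classes. A minimum of 10 CPM gave 2 lower genes in low-ribosomal cDC2, 4 in pDC, and 1 higher gene in cDC1 (Nr4a2). Equal class shares gave 3 lower genes over all cells. Averaging scaled cells gave 2 lower genes in Ccr2-gated cDC2 and 1 in cDC1. One more marker per gate gave 2 in low-ribosomal cDC2 and 0 in pDC, and a ribosomal limit of 12% gave 2 in low-ribosomal cDC2. In pDC, 1 lower gene was left with median-ratio scaling, without cells over 10% mitochondrial UMIs, with Ace or Fabp4 required for the monocyte gate, with a total that leaves out ribosomal, mitochondrial and MHC-II UMIs, and without barcodes found in both libraries. The last 3 were chosen after seeing the data, as was a mature class without genes of mature cDC1, where 3 genes were lower and Nr4a2 went from −1.43 to −0.48. Zfp36 in Ffar2-gated cDC2 ranged from −0.77 to −0.73 over its alternatives. Without cells of 2 lineages and the 1% with most UMIs no count of lower genes moved by more than 1.5 times. No paired analysis was possible because each genotype has 1 library. Nr4a2 in pDC had 0 UMIs in a library under 2 alternatives and has no value there. Low UMI counts limit Nr4a2, Nr4a3 outside mature cells, and all members in pDC, macrophages and proliferating cells.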
